A study of Mus musculus with 8 samples.

Results

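The circulating miRNAs followed here, in mouse plasma after treatment with imatinib or doxorubicin, are abundant in endothelium: both arms of miR-126a (mmu-miR-126a-3p and mmu-miR-126a-5p), mmu-miR-221-3p and mmu-miR-222-3p, written below without the prefix for mouse. They were chosen by name among the 1881 mouse miRNAs on the array, and all 4 of 4 were detected on each of the 8 arrays and were among the 267 miRNAs tested. Mice were females of the outbred NMRI stock, aged 3 months. In the IMB group they received imatinib, an inhibitor of several tyrosine kinases, by mouth at 100 mg/kg each day for 9 days. In the DOX group they received doxorubicin, an anthracycline that damages DNA, intravenously by the tail, 4 injections of 3 mg/kg on alternate days. In the CTRL group they received the solvents alone. The labels do not say by which route each CTRL pool received them. Each array was run on RNA of 1 pool, made from 3 mice and extracted from 300 µl of their plasma, with 3 IMB pools, 3 DOX pools and 2 CTRL pools. The drugs differed in route, dose and number of doses as well as in kind, and pooling hides the spread between single mice.

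miRNAs are short RNAs that guide the silencing of messenger RNAs that pair with their seed, bases 2 to 8. Both arms of miR-126a are cut from 1 hairpin, encoded in an intron of Egfl7, a gene for a protein secreted by endothelial cells. In mouse endothelium miR-126a-3p represses Spred1 and Pik3r2, inhibitors of signalling below the VEGF receptor, and miR-126a-5p represses the Notch ligand Dlk1. miR-221-3p and miR-222-3p come from neighbouring hairpins and repress KIT in human endothelial cells. These miRNAs are not specific to endothelium: platelets also carry miR-126a, and many other cell types make miR-221 and miR-222. The source cells were not measured, so the endothelial name is background. More releasing cells and more release per cell cannot be told apart in these samples.

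The mature sequences, from RefSeq with GRCm38.p6 coordinates, matched 3 of the 4 miRNAs by name. They are shown because miR-221-3p and miR-222-3p share a seed and miR-126a-3p has another; the capitals mark the seed.
miR-126a-3p: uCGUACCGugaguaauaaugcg
miR-221-3p: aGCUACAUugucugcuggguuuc
miR-222-3p: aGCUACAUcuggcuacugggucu
miR-126a-3p lies at chr2:26591402-26591423 on the plus strand, inside the span of Egfl7 (chr2:26581083-26592682). miR-221-3p lies at chrX:19146307-19146329 and miR-222-3p at chrX:19146901-19146923, both on the minus strand, with 504 bases between their hairpins. miR-221-3p and miR-222-3p have the same first 8 bases and match at 11 of 23 positions when aligned from the 5′ end. Among 1679 mature mouse sequences in the table, the seed GCUACAU occurs in 3, the other being miR-1928, which was on the array and was not detected. The seed CGUACCG occurs in miR-126a-3p only.

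The Mir126a hairpin (chr2:26591357-26591429, plus strand) is printed to show where the 3p arm, in capitals, sits in the precursor.
Mir126a: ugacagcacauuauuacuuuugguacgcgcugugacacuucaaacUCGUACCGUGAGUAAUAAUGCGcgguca
A second hairpin, Mir126b, is annotated on the opposite strand, and its 5p arm is shown because it pairs with the arm above over a run of 19 bases. Its seed is in capitals.
miR-126b-5p: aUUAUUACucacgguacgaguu
miR-126b-5p and miR-126b-3p were detected on 0 of 8 arrays, as were the partner arms miR-221-5p and miR-222-5p. The signal described below is that of the probes for the 4 named arms, 2 for each. Whether these probes also bound other RNAs was not tested.

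Values are log2 scaled signals, the log2 of a miRNA's background-subtracted fluorescence after each array was scaled to a common 75th percentile. Before scaling that percentile ran from 196 to 425 over the IMB arrays, from 213 to 267 over the DOX arrays and from 300 to 349 over the CTRL arrays. The arrays detected 266 to 339 miRNAs in IMB pools, 258 to 279 in DOX pools and 297 to 327 in CTRL pools. No spot was saturated. Errors of differences are standard errors (SE), and the tests are limma's moderated tests with Benjamini-Hochberg adjustment over all 267 miRNAs and a threshold of 0.05. With so few arrays, their number sets the precision.

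miR-126a-5p was lowest after imatinib and highest after doxorubicin. It measured 5.42, 5.36 and 5.81 in the IMB pools, 6.23, 6.30 and 6.14 in the DOX pools, and 5.83 and 5.92 in CTRL pools. All 3 IMB pools lay below both CTRL pools, the third by a narrow margin, and all 3 DOX pools lay above both, so no pair of groups overlapped. Of the 267 miRNAs tested, 1 (0.375%) had this order without overlap, and it was miR-126a-5p. The opposite order was also found once (0.375%), for miR-144-3p, a red cell miRNA.

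miR-126a-3p, the brighter arm, had the same order of group means but with overlap. It measured 8.95, 9.35 and 9.96 in the IMB pools, 9.86, 10.04 and 9.87 in the DOX pools, and 9.45 and 9.53 in CTRL pools. The DOX pools lay together above both CTRL pools, while the IMB pools spread from below the controls up into the DOX values. The IMB pools had an SD of 0.51 (n = 3), against 0.10 (n = 3) for DOX and 0.05 (n = 2) for CTRL.

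miR-221-3p was close in DOX and CTRL pools and lower in IMB pools 2 and 3. It measured 5.48, 5.16 and 5.10 in the IMB pools, 5.53, 5.70 and 5.51 in the DOX pools, and 5.58 and 5.41 in CTRL pools. The IMB pools lay below all DOX pools but overlapped the controls, because IMB pool 1 sat between the CTRL pools. miR-222-3p measured 6.34, 5.99 and 5.93 in the IMB pools, 6.21, 6.42 and 6.38 in the DOX pools, and 6.07 and 6.42 in CTRL pools. All its groups overlapped, and IMB pool 1 was again the highest IMB pool.

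**Figure D1:**
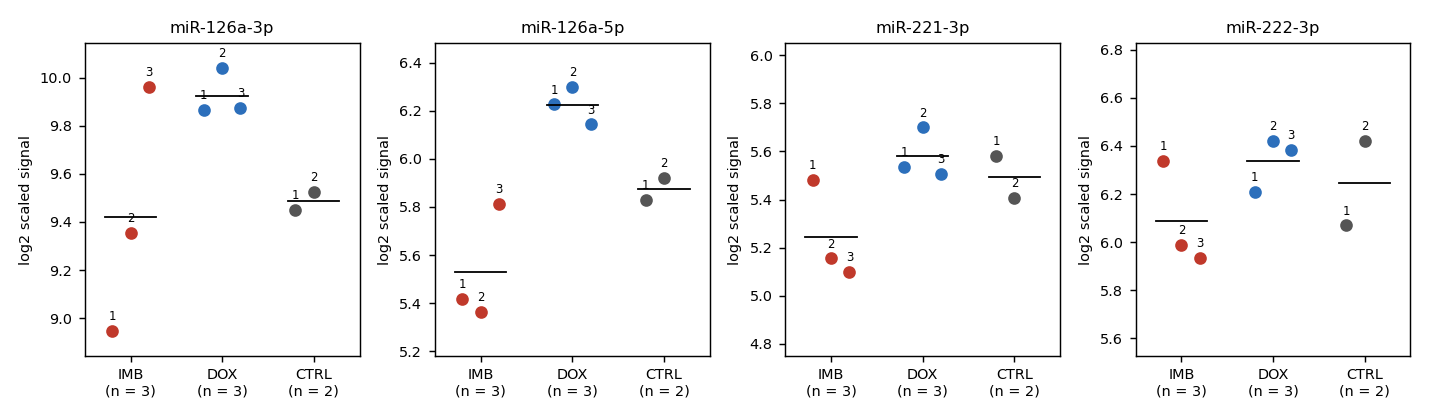
Log2 scaled signal (y axis) of the 4 miRNAs in each pool of the IMB, DOX and CTRL groups (x axis). Points are pools with their numbers, lines are group means, and every panel spans the same number of log2 units. miR-126a-5p shows 3 separate groups, with IMB pools from 5.36 to 5.81, DOX pools from 6.14 to 6.30 and CTRL pools from 5.83 to 5.92.

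By mean level on this scale, each of the 4 miRNAs ran from DOX at the top through CTRL to IMB at the bottom. Of all 267 tested miRNAs, 143 had a higher mean in DOX than in CTRL pools. A lower mean in IMB than in CTRL pools was found for 115. How many had the whole order of means was not counted. For miR-126a-3p the means were 9.42 ± 0.51 for IMB (SD, n = 3), 9.93 ± 0.10 for DOX (SD, n = 3) and 9.49 ± 0.05 for CTRL (SD, n = 2), so IMB and CTRL were closer than the spread of the IMB pools. For miR-126a-5p they were 5.53 ± 0.25, 6.22 ± 0.08 and 5.87 ± 0.06. For miR-221-3p they were 5.25 ± 0.21, 5.58 ± 0.10 and 5.49 ± 0.12, with DOX and CTRL closer than their spread. For miR-222-3p they were 6.09 ± 0.22, 6.34 ± 0.11 and 6.24 ± 0.25, and no neighbours in that order differed beyond their spread. Each signal depends on its probes, so levels were not compared between miRNAs.

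The first comparison asked whether imatinib changed these miRNAs against solvent. None of the 4 passed the limma test, and 0 had an unadjusted p under 0.05. In all, 0.749% of the tested miRNAs passed (2 of 267) and 8.24% had an unadjusted p under 0.05. The largest difference was that of miR-126a-5p, 0.788-fold with imatinib (log2 -0.34, SE 0.16, 95% interval -0.72 to 0.03, limma adjusted p = 0.67). It was -0.10 with normexp background correction and -0.20 with the mean of the log2 probe values. It was the only one of the 4 whose pools did not overlap. Of the tested miRNAs 19.5% did not overlap, and 7.49% had all IMB pools below both controls. miR-221-3p differed by -0.25 (SE 0.15, 95% interval -0.61 to 0.11, limma adjusted p = 0.73). miR-222-3p differed by -0.16 (SE 0.18, 95% interval -0.57 to 0.25, limma adjusted p = 0.87). miR-126a-3p differed by -0.07 (SE 0.27, 95% interval -0.68 to 0.55, limma adjusted p = 0.94). These intervals leave room for a fall of miR-126a-3p to 0.622-fold and for a rise to 1.46-fold. The median difference of the 4 was -0.20, beside 0.04 over all tested miRNAs. IMB pool 1 sets the sign for miR-126a-3p, which was 0.17 higher with imatinib without that pool, and CTRL pool 2 that for miR-222-3p, which was 0.02 higher without it.

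The second comparison asked the same of doxorubicin. All 4 differences were positive, beside 143 of all 267 tested miRNAs. Without scaling 3 of the 4 turned negative, and with median scaling miR-221-3p did (-0.0011). None passed the limma test or had an unadjusted p under 0.05, where 0.375% of the tested miRNAs passed (1 of 267) and 7.87% had an unadjusted p under 0.05. miR-126a-3p was 1.36-fold with doxorubicin (log2 0.44, SE 0.27, 95% interval -0.18 to 1.06, limma adjusted p = 0.64). miR-126a-5p was 1.27-fold (log2 0.35, SE 0.16, 95% interval -0.02 to 0.72, limma adjusted p = 0.57). For both arms all DOX pools lay above both CTRL pools, which was so for 20.6% of tested miRNAs, while 31.5% did not overlap in either direction. miR-221-3p and miR-222-3p differed by 0.09 each (SE 0.15 and 0.18), with 95% intervals of -0.27 to 0.45 and -0.31 to 0.50 (limma adjusted p = 0.91 and 0.92). The median of the 4 was 0.22, beside 0.03 over all tested miRNAs. Without scaling between arrays the differences of miR-126a-5p, miR-221-3p and miR-222-3p turned negative (-0.07, -0.33 and -0.33) and that of miR-126a-3p was 0.017, in a setting where the median over all tested miRNAs was -0.33. Without CTRL pool 1, miR-222-3p also turned negative (-0.08).

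The third comparison set imatinib directly against doxorubicin, and held the largest differences. All 4 miRNAs were lower after imatinib, beside 145 of all 267 tested miRNAs, except that without scaling miR-222-3p was higher (0.055). miR-126a-5p was 0.619-fold (log2 -0.69, SE 0.14, 95% interval -1.03 to -0.36), with an unadjusted p of 0.0015 and a limma adjusted p of 0.067, past the threshold only before adjustment. It ranked sixth of 267 by unadjusted p, and 5 miRNAs (1.87%) passed. miR-221-3p was 0.793-fold (log2 -0.34, SE 0.14, 95% interval -0.66 to -0.01, unadjusted p = 0.044, limma adjusted p = 0.41). For both, all IMB pools lay below all DOX pools, which was so for 8.99% of tested miRNAs, while 16.5% did not overlap in either direction. An unadjusted p under 0.05 was reached by 2 of the 4 and by 12.0% of all tested miRNAs. miR-126a-3p differed by -0.51 (SE 0.24, 95% interval -1.06 to 0.05, limma adjusted p = 0.43), and IMB pool 3 lay among the DOX pools. miR-222-3p differed by -0.25 (SE 0.16, 95% interval -0.62 to 0.11, limma adjusted p = 0.56). The median of the 4 was -0.42, beside -0.02 over all tested miRNAs. This comparison shares its pools with both comparisons above, so its values are not separate evidence.

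**Figure D2:**
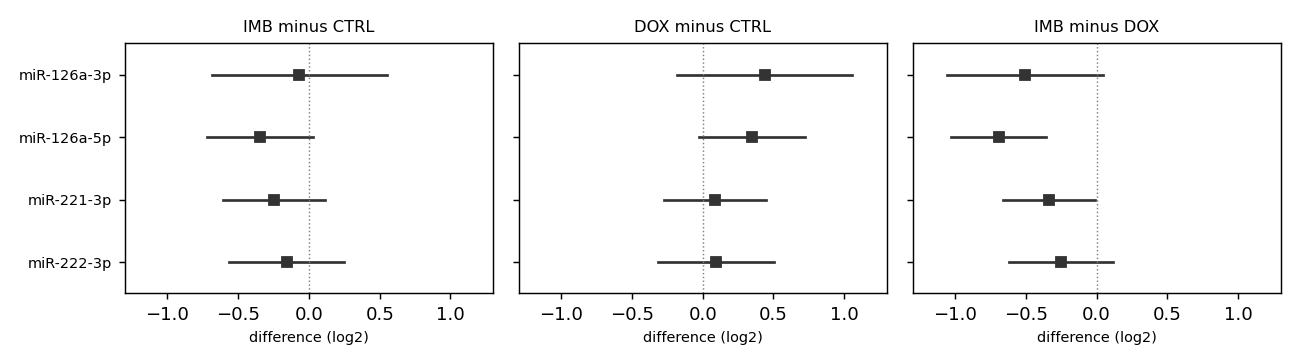
Difference in log2 scaled signal (x axis) for the 4 miRNAs (y axis) in the 3 comparisons, with squares for the estimate and lines for limma's 95% interval. Only the intervals of miR-126a-5p (-1.03 to -0.36) and miR-221-3p (-0.66 to -0.01) for IMB minus DOX do not reach 0, and neither passed after adjustment over 267 miRNAs.

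The call for miR-126a-5p between imatinib and doxorubicin lay near the threshold. Over 25 alternatives the difference kept its sign, from -0.83 to -0.39, with limma adjusted p from 0.033 to 0.72. It passed in 2 of them: with the mean of the log2 probe values (-0.55, limma adjusted p = 0.047) and without IMB pool 3 (-0.83, limma adjusted p = 0.033). In the first of these, the dimmer of its probes was at the floor in every IMB pool. Agilent's own total gene signal gave -0.72 (limma adjusted p = 0.094), and the authors' deposited table gave -0.68 (limma adjusted p = 0.14). Some alternatives, such as the filter, the variance model and leaving out a CTRL pool, cannot change this difference. Leaving out 1 IMB or DOX pool cannot turn its sign, because these pools did not overlap.

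The position of the arrays on the slide was also checked, since row 1 held IMB pool 1, CTRL pool 1 and the first pair of DOX pools, and row 2 the other 4. For miR-126a-5p, IMB minus DOX was -0.85 within row 1 and -0.56 within row 2, IMB minus CTRL was -0.41 and -0.33, and DOX minus CTRL was 0.43 and 0.22. No pair of groups overlapped for this miRNA, so the within-row values could only keep the direction of the pooled ones. They do not test whether the row affects that direction. For miR-126a-3p, IMB minus DOX was -1.005 in row 1, with the single IMB pool 1, and -0.22 in row 2, while IMB minus CTRL was -0.50 and 0.13. miR-221-3p kept its direction in both rows in each comparison, with IMB minus DOX at -0.14 and -0.38. For IMB minus DOX its pools did not overlap, so there no other direction was possible. For miR-222-3p, IMB minus DOX was 0.02 in row 1 and -0.42 in row 2, IMB minus CTRL 0.27 and -0.46, and DOX minus CTRL 0.25 and -0.03. Its direction therefore turned between rows in all 3 comparisons.

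Both probes of miR-126a-5p were examined one by one. The brighter measured 6.05, 6.08 and 6.54 in the IMB pools, 6.92, 7.003 and 6.87 in the DOX pools, and 6.55 and 6.64 in CTRL pools. The dimmer measured 4.26, 3.87 and 4.27 in the IMB pools, 4.84, 4.87 and 4.62 in the DOX pools, and 4.32 and 4.43 in CTRL pools. The brighter probe put every IMB pool below and every DOX pool above both controls, with IMB minus DOX at -0.71. The values of the dimmer probe in all IMB pools and in CTRL pool 1 lay below the floor of 4.39 and have no order, so no difference is read from it. That probe lay near background: 6.67% of its spots were well above background in IMB pool 1, 80.0% and 57.1% in IMB pools 2 and 3, 66.7% to 78.6% in the DOX pools, and 66.7% and 100% in CTRL pools. The brighter probe was well above background in 100% of its spots on every array. Its coefficient of variation over 15 spots had a median of 7.33% over the arrays, against 19.5% for the dimmer one.

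The probes of miR-126a-3p moved alike. The brighter measured 9.14, 9.55 and 10.15 in the IMB pools, 10.05, 10.23 and 10.07 in the DOX pools, and 9.65 and 9.73 in CTRL pools. The dimmer measured 8.72, 9.12 and 9.74 in the IMB pools, 9.65, 9.82 and 9.65 in the DOX pools, and 9.22 and 9.29 in the CTRL pools. IMB minus DOX was -0.50 and -0.51. The low value of IMB pool 1 and the high value of IMB pool 3 thus appeared in both probes, whose spots varied by a median of 5.66% and 4.50%. For miR-221-3p the brighter and dimmer probes gave -0.31 and -0.37 for IMB minus DOX, and each kept all IMB pools below all DOX pools. For miR-222-3p they gave -0.26 and -0.24, and the pools overlapped on both.

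**Figure D3:**
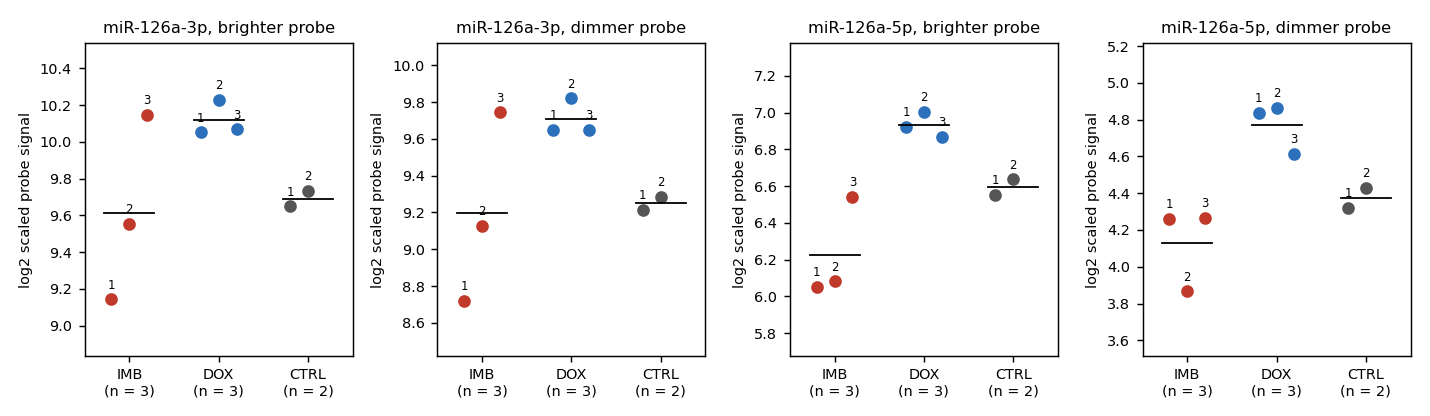
Log2 scaled signal (y axis) of each probe of miR-126a-3p and miR-126a-5p in each pool of the IMB, DOX and CTRL groups (x axis), with pool numbers and group means as lines. The brighter miR-126a-5p probe keeps the 3 groups apart, the dimmer one lies below the floor of 4.39 in all IMB pools, and both miR-126a-3p probes put IMB pool 1 lowest (9.14 and 8.72).

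Before any scaling, Agilent's total gene signal on the linear scale was 146, 537 and 481 for miR-126a-3p in the IMB pools, 299, 394 and 377 in the DOX pools, and 316 and 507 in the CTRL pools. For miR-126a-5p it was 12.6, 33.8 and 27.1 in the IMB pools, 24.0, 29.5 and 28.4 in the DOX pools, and 25.7 and 41.6 in the CTRL pools. On this unscaled signal the groups of both arms overlapped, and IMB pool 1 was the lowest array for each. Its total gene signal was 13.2 for miR-221-3p, also the lowest array. For that miRNA the unscaled signal ran from 13.2 to 29.2 over the IMB pools, from 14.8 to 19.5 over the DOX pools and from 21.6 to 29.1 over the CTRL pools. For miR-222-3p it ran from 23.9 to 52.1, from 23.7 to 33.6 and from 30.3 to 58.8 in the IMB, DOX and CTRL pools.

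The ratio of the 5p to the 3p arm of miR-126a is free of the scaling between arrays. Its size depends on the probes, so it was compared between pools only. The 5p signal was 8.66%, 6.29% and 5.64% of the 3p signal in the IMB pools, 8.03%, 7.48% and 7.54% in the DOX pools, and 8.14% and 8.21% in the CTRL pools. IMB pools 2 and 3 had the lowest ratios and IMB pool 1 the highest, while all 3 DOX pools lay below both CTRL pools. On the log2 scale the ratio averaged -3.89 ± 0.32 in IMB (SD, n = 3), -3.70 ± 0.06 in DOX (SD, n = 3) and -3.61 ± 0.01 in CTRL (SD, n = 2). The difference was -0.28 for IMB minus CTRL (exact 2-sided permutation p = 0.4), -0.09 for DOX minus CTRL (exact permutation p = 0.2) and -0.19 for IMB minus DOX (exact permutation p = 0.4). With 3 against 2 pools and 3 against 3 pools, the smallest p these tests can give is 0.1, so the design cannot reach 0.05. Adjusted over the 6 ratio tests, each of these p-values was 0.6. IMB minus CTRL was -0.026 with normexp and -0.13 with the mean of the log2 probe values, and IMB minus DOX was 0.030 and -0.040 in these settings. Without IMB pool 1, IMB minus CTRL was -0.46 and IMB minus DOX -0.37, while without IMB pool 3 they were -0.15 and -0.058.

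The ratio of miR-222-3p to miR-221-3p, from the neighbouring hairpins with a shared seed, was 0.86, 0.83 and 0.83 on the log2 scale in the IMB pools, 0.67, 0.72 and 0.88 in the DOX pools, and 0.49 and 1.01 in CTRL pools. The IMB values were nearly equal, and the controls spanned all other pools. The difference was 0.09 for IMB minus CTRL (exact permutation p = 0.7, adjusted 0.84), 0.01 for DOX minus CTRL (exact permutation p = 1, adjusted 1) and 0.08 for IMB minus DOX (exact permutation p = 0.4, adjusted 0.6). None of these differences exceeded the spread of the CTRL pools (SD 0.37).

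**Figure D4:**
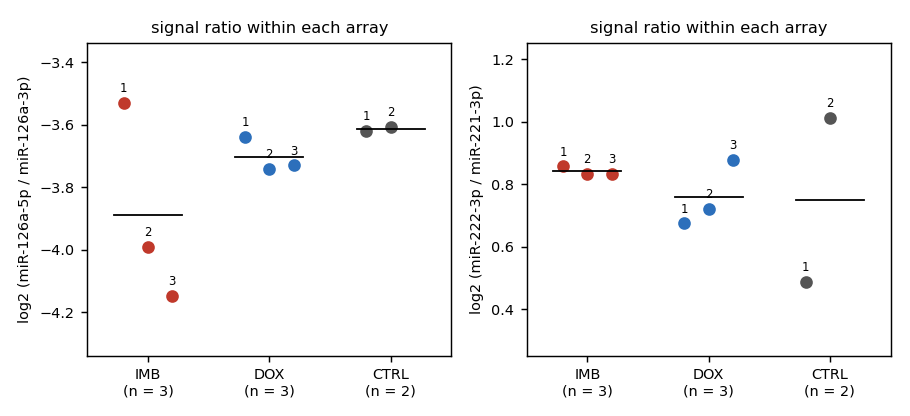
Log2 ratio of miR-126a-5p to miR-126a-3p (left) and of miR-222-3p to miR-221-3p (right) within each array (y axes), by pool of the IMB, DOX and CTRL groups (x axes), with lines for group means. The arm ratio spans -4.15 to -3.53 over the IMB pools, against -3.74 to -3.64 over the DOX pools and -3.62 to -3.61 over the CTRL pools.

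The red cell, platelet and myeloid miRNAs that plasma can also hold were read beside these results. Red cell content was followed by an index, miR-451a minus miR-23a-3p on the log2 scale. It was 3.91, 4.45 and 3.90 in the IMB pools, 3.15, 2.68 and 2.73 in the DOX pools, and 3.84 and 3.18 in CTRL pools. The index was thus high in the IMB pools and low in the DOX pools, in the order opposite to miR-126a-5p. The index holds miR-23a-3p, whose own level was lower after imatinib than after doxorubicin (-0.40, limma adjusted p = 0.33). All 6 tested miRNAs of the 8 on the red cell list were higher with imatinib than with doxorubicin, beside 122 of all 267 tested, and 1 of them, miR-144-3p, passed (log2 1.20, limma adjusted p = 0.00075). The summed signal of that list ran from 32776 to 41777 over the IMB pools, from 18834 to 28181 over the DOX pools and from 23742 to 39138 over the CTRL pools. Such sums of linear signals, here and below, weigh the brightest miRNAs of a list most. The part of red cell RNA in the miR-126a-5p differences was not tested.

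Of 9 listed platelet miRNAs, 7 were tested and 0 passed limma in any comparison, beside 0.749%, 0.375% and 1.87% of all tested miRNAs for IMB minus CTRL, DOX minus CTRL and IMB minus DOX. For IMB minus DOX 5 of the 7 were lower and 2 higher (median -0.20). Their summed signal ran from 4093 to 5919 over the IMB pools, from 5348 to 6645 over the DOX pools and from 6055 to 6095 over the CTRL pools. The IMB sums overlapped the DOX sums and lay below both controls. miR-191-5p, a platelet miRNA, was detected on 0 of 8 arrays. The 5 tested myeloid miRNAs also gave 0 calls in limma, beside the same shares, with 3 lower and 2 higher for IMB minus DOX (median -0.12) and sums of 1281 to 1773 over the IMB pools, 1882 to 2149 over the DOX pools and 1674 to 2089 over the CTRL pools. The myeloid sums of all IMB pools lay below those of all DOX pools. Of the tested myeloid miRNAs only miR-223-3p had its pools apart in this way, so the sums are not a result for the whole list. miR-155-5p, among the higher ones, was at the floor in 2 IMB pools and all 3 DOX pools. miR-223-3p, abundant in platelets and myeloid cells, measured 10.39, 9.96 and 10.26 in the IMB pools, 10.64, 10.64 and 10.75 in the DOX pools, and 10.72 and 10.22 in the CTRL pools. Its difference for IMB minus DOX was -0.48 (SE 0.17, unadjusted p = 0.024, limma adjusted p = 0.30). Other members of these lists lay on the other side of 0, and miR-103-3p of the platelet list differed by 0.50 (SE 0.13, unadjusted p = 0.0064, limma adjusted p = 0.19), with all IMB pools above all DOX pools. The smooth muscle miRNAs miR-143-3p and miR-145a-5p summed to 87.4 to 194 over the IMB pools, 141 to 163 over the DOX pools and 148 to 168 over the CTRL pools, with overlap. The 3 tested striated muscle miRNAs had higher means in IMB and DOX pools than in CTRL pools, with 0 passing limma. They summed to 95.9 to 1105 over the IMB pools, 107 to 307 over the DOX pools and 69.5 to 69.7 over the CTRL pools, and miR-1a-3p was at the floor in both CTRL pools. The 3 liver miRNAs, also with 0 calls in limma, summed to 1125 to 3135, 1872 to 2586 and 1274 to 1550 in the IMB, DOX and CTRL pools, and miR-122-5p differed by 0.65 for IMB minus CTRL and 0.70 for DOX minus CTRL (limma adjusted p = 0.80 for both). The part of platelet, myeloid, muscle and liver RNA in the differences of the 4 miRNAs was not tested.

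**Figure D5:**
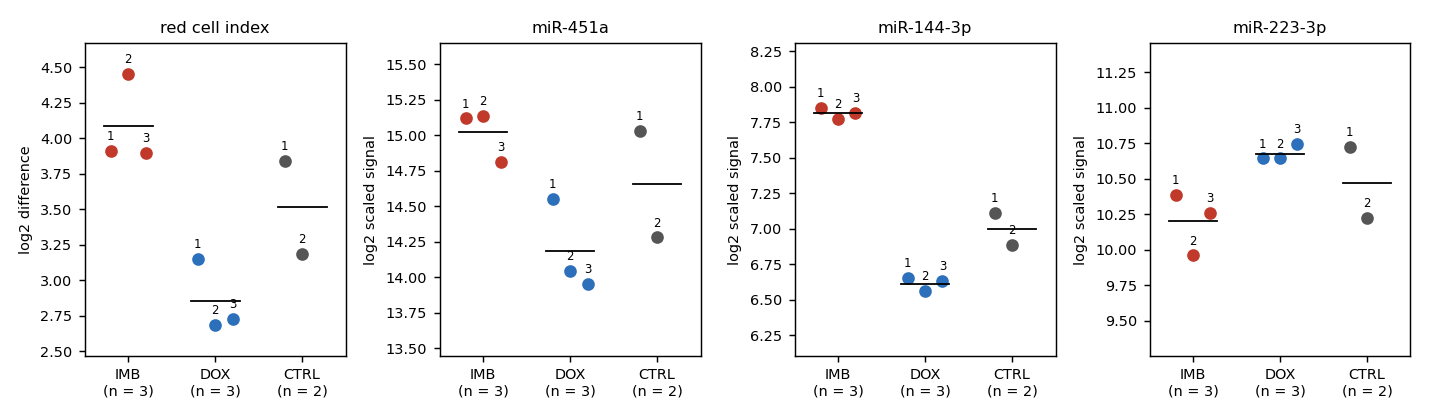
Red cell index (log2 difference of miR-451a and miR-23a-3p, left) and log2 scaled signals of miR-451a, miR-144-3p and miR-223-3p (y axes) in each pool of the IMB, DOX and CTRL groups (x axes), with lines for group means. The index is 3.90 to 4.45 in IMB pools, 2.68 to 3.15 in DOX pools and 3.18 to 3.84 in CTRL pools.

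The 4 miRNAs were then set in a wider list of 13 endothelium-enriched arms, of which 8 were tested and 5 were detected on no array. In limma 0 of the 8 passed in any comparison, beside 0.749%, 0.375% and 1.87% of all tested miRNAs. For IMB minus CTRL 7 were lower and 1 was higher, beside 115 lower and 151 higher of all 267 tested (median -0.19, beside 0.04 over all tested miRNAs). For DOX minus CTRL 6 were higher and 2 lower, beside 143 and 120 of all tested (median 0.09, beside 0.03). For IMB minus DOX 6 were lower and 2 higher, beside 145 and 122 (median -0.29, beside -0.02). miR-10b-5p, which represses flt1 in zebrafish vessels, differed by -0.33 between imatinib and doxorubicin (SE 0.15, limma adjusted p = 0.41). miR-100-5p and miR-125b-5p differed there by 0.06 and 0.05 (limma adjusted p = 0.90 and 0.94). miR-100-5p was at the floor in 1 IMB pool, so the size of its difference depends partly on the floor. These 3 examples were picked after their values were seen. The 8 miRNAs include the 4 described above, all of which are part of the larger count in each comparison. The summed signal of the list ran from 1152 to 1878 over the IMB pools, from 1734 to 1931 over the DOX pools and from 1535 to 1618 over the CTRL pools.

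A list of 28 miRNAs with published roles in vessel growth, some of them also on the endothelial list, had 26 tested. In limma 0 passed for IMB minus CTRL, 1 passed as higher for DOX minus CTRL and 1 passed as lower for IMB minus DOX, beside 0.749%, 0.375% and 1.87% of all tested miRNAs in either direction. Both calls were miR-34a-5p, a target of p53 (limma adjusted p = 0.00042 for DOX minus CTRL and 0.00026 for IMB minus DOX). Its signal was at the floor in 2 of 3 IMB pools, 0 of 3 DOX pools and both CTRL pools, so its size depends on the floor and is not given. The medians of the list were -0.09, -0.06 and 0.00 for IMB minus CTRL, DOX minus CTRL and IMB minus DOX.

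Against the controls, the largest differences of that list after imatinib were 0.80 for miR-378a-3p and 0.25 for miR-296-5p on the higher side (limma adjusted p = 0.41 and 0.73). On the lower side they were -0.51 for miR-18a-5p, a member of the miR-17-92 cluster, and -0.46 for miR-130a-3p, which represses the homeobox gene MEOX2 in human endothelial cells (limma adjusted p = 0.38 and 0.59). After doxorubicin, miR-27a-3p, which represses SEMA6A in human endothelial cells, differed by 0.36 (limma adjusted p = 0.64). miR-18a-5p differed by -0.45 and miR-16-5p, which represses VEGFA in human cells, by -0.44 (limma adjusted p = 0.49 and 0.59). Between imatinib and doxorubicin, miR-378a-3p and miR-16-5p differed by 0.52 and 0.50 (limma adjusted p = 0.46 and 0.41), and miR-27a-3p by -0.58 (limma adjusted p = 0.28). Of the miRNAs named here from this list, only miR-34a-5p passed.

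Likeness of pattern was described by Pearson's r over the 8 arrays, against 240 other miRNAs detected on all of them. These values share the scaling, the slide and the treatment groups of the arrays. For miR-126a-3p the closest were miR-23b-3p (r = 0.95), miR-6984-5p (0.87) and miR-6965-5p (0.84), and its partner arm miR-126a-5p was the fourth (0.83), before miR-7088-5p (0.81). For miR-126a-5p they were miR-326-3p (0.85), miR-6965-5p (0.83), miR-126a-3p (0.83), miR-139-5p (0.82) and miR-208a-5p (0.82). miR-221-3p was closest to miR-361-5p (0.96), miR-7040-5p (0.90), miR-23a-3p (0.89), miR-8100 (0.88) and miR-328-3p (0.86). miR-222-3p was closest to miR-3077-5p (0.98), miR-7040-5p (0.83), miR-27a-3p (0.80), miR-680 (0.80) and miR-24-3p (0.79). miR-221-3p and miR-222-3p had r = 0.70 with each other, and miR-222-3p was in place 19 of 240 on the list of miR-221-3p. miR-126a-5p had r = 0.60 with miR-221-3p and 0.46 with miR-222-3p, while miR-126a-3p had 0.11 and 0.03.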

How the data were processed

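Plasma RNA was measured on 8 Agilent miRNA arrays with 1 colour, all on 1 slide. The scanner output deposited for each array gives linear intensity per spot, background-subtracted and not scaled between arrays per the file headers. Agilent Feature Extraction 11.5.1.1 is named in the submitters' processing notes. The authors' deposited table holds log2 values in 1902 rows, made by steps not given in the sources used here; it served as an alternative.

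Outlier spots were left out and the processed intensity of a probe's other spots was averaged. A probe counted as detected where over 50% of its spots were well above background. Scaling used each array's 75th percentile, taken across the 454 probes detected on every array. Probes were averaged per miRNA on the linear scale, floored at 20.9 (log2 4.39), and put on the log2 scale. Of 294 mouse miRNAs detected on every array of a group, 27 at the floor on all arrays were left out, a choice made after seeing the data, and 267 were tested.

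All 8 arrays were fitted together in limma 3.58.1 (R 4.3.3; lmFit, eBayes, 2-sided), with 5 residual and 2.57 prior degrees of freedom. Ratios were compared by exact permutation. The labels call the pools biological replicates. Deviations from the group means had r from -0.24 to 0.40 between same-numbered arrays, with no baseline from arrays of other numbers. The main fit used no pairing, and a replicate block served as an alternative. The fit was tested on simulated data. The miRNAs, lists, tests and rules for names were chosen with earlier results of these data known. Named from the vessel growth list were miRNAs past the threshold and the pair with the largest differences each way; the 5 closest patterns were computed per miRNA. Alternatives covered signal, background, scaling, floor, probe summary, filter, variance model, blocks, leave-one-out fits and the authors' table. Normexp background correction started from median spot signals. Figures used matplotlib 3.10.9.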

Additional observations from a re-analysis of the deposited data

Results flagged for a closer look

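miR-126a-5p lay on opposite sides of the controls under the 2 drugs, on the scaled signal: all 3 IMB pools lay below both CTRL pools (mean difference -0.34, 95% interval -0.72 to 0.03) and all 3 DOX pools lay above both (0.35, 95% interval -0.02 to 0.72). The difference between the drugs was -0.6923 on the log2 scale (SE 0.14, 95% interval -1.03 to -0.36), with a limma adjusted p of 0.067, which misses the threshold. Neither drug's own difference from the controls passed (limma adjusted p = 0.67 and 0.57), without scaling DOX minus CTRL was -0.073, and the unscaled total gene signals of the 3 groups overlapped. The highest IMB pool (5.81) and the lower CTRL pool (5.83) were nearly equal. The red cell index ran the other way, from 3.90 to 4.45 in IMB pools, 2.68 to 3.15 in DOX pools and 3.18 to 3.84 in CTRL pools, and its part in the difference was not tested.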

How the results depend on the processing

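The sign of IMB minus DOX for miR-126a-3p, miR-126a-5p and miR-221-3p, and of IMB minus CTRL for miR-126a-5p and miR-221-3p, was kept under all 25 alternatives. So was that of DOX minus CTRL for miR-126a-3p, though this difference was only 0.017 without scaling. Some of the alternatives could not turn a sign. The filter and the variance model leave a difference as it was, and leaving out 1 pool cannot turn groups that do not overlap. Members past the threshold for IMB minus DOX numbered 1 with the mean of log2 probe values (miR-126a-5p, -0.55) and 0 to 1 over leaving out each pool (miR-126a-5p, -0.83 to -0.61). Leaving out 1 pool gave -0.34 to 0.17 for miR-126a-3p and -0.33 to 0.017 for miR-222-3p (IMB minus CTRL), and -0.00043 to 0.17 for miR-221-3p and -0.081 to 0.27 for miR-222-3p (DOX minus CTRL). With no scaling, which moves the median over the tested miRNAs to -0.33 (DOX minus CTRL) and 0.24 (IMB minus DOX), DOX minus CTRL was -0.073 for miR-126a-5p, -0.33 for miR-221-3p and -0.33 for miR-222-3p, and IMB minus DOX was 0.055 for miR-222-3p. Median scaling gave -0.0011 for miR-221-3p in DOX minus CTRL. With normexp the ratio of miR-222-3p to miR-221-3p was -0.027 for IMB minus CTRL and -0.054 for DOX minus CTRL, and the arm ratio of miR-126a was 0.030 for IMB minus DOX. Leaving out 1 pool gave -0.17 to 0.35 and -0.26 to 0.27 for the ratio of miR-222-3p to miR-221-3p. The causes of these reversals were not tested.

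Of all tested miRNAs, 2 passed for IMB minus CTRL, 1 for DOX minus CTRL and 5 for IMB minus DOX. The IMB minus CTRL count rose to 3 with the mean of log2 probe values, the 27 miRNAs at the floor kept or the robust variance model with a trend. The IMB minus DOX count was 6 with the mean of log2 probe values. It was 4 with the brightest probe, the authors' table or miRNAs detected on all arrays. For IMB minus CTRL the count was 1 with Agilent's total signal, normexp, the percentile over all probes, median scaling, the lower floor, the authors' table, miRNAs detected on all arrays, only the groups compared or the replicate block, 0 with no scaling, and 0 to 14 over leaving out each pool (14 without IMB pool 1). For DOX minus CTRL it was 2 with Agilent's total signal, the lower floor, the authors' table or only the groups compared, and 1 to 2 over leaving out each pool. For IMB minus DOX it was 3 with the percentile over all probes, the 27 miRNAs at the floor kept (added after seeing the data), the replicate block or the slide row as a block, 2 with no scaling or only the groups compared, and 2 to 15 over leaving out each pool (15 without IMB pool 1).

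Pool numbers were not used to pair the samples in the main fit. With the replicate block miR-126a-5p gave -0.69 for IMB minus DOX (limma adjusted p = 0.12). The ratio of miR-222-3p to miR-221-3p gave -0.053 for DOX minus CTRL, and no member was called. Signal over background limits miR-126a-5p, whose dimmer probe had 6.67% to 80.0% of its spots well above background in the IMB pools.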
